A study of Mus musculus with 12 samples.

Results

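The chemokines Ccl2, Ccl7, Ccl12, Cxcl2, Cxcl10, Ccl6, Ccl9 and Cxcl16 were followed in mouse brain myeloid cells that had been prepared in 4 ways. These 8 genes were taken by symbol from the 31053 genes of the count tables, and they were grouped as 5 induced genes (Ccl2, Ccl7, Ccl12, Cxcl2 and Cxcl10) and 3 constitutive genes (Ccl6, Ccl9 and Cxcl16) after their usual description in macrophages. All 8 were detected, and 6 of the 8 carried enough counts to be tested across libraries, whereas Cxcl2 and Cxcl10 did not. The division into induced and constitutive is a working name, and the values below show how far each gene kept to it.

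The study asked how the way a brain is taken apart alters the transcripts read from its microglia. Whole brains of male C57BL/6J mice at postnatal day 90 were used, 1 animal per library and 3 libraries per group. Brains of DNC-NONE mice were broken up by cold Dounce homogenisation without inhibitors, and those of DNC-INHIB mice in the same way with inhibitors of transcription and translation. Brains of ENZ-NONE mice were digested with enzymes at 37 °C without inhibitors, and those of ENZ-INHIB mice were digested with the inhibitors present. The inhibitors were actinomycin D and triptolide, which block transcription, and anisomycin, which blocks translation. All 4 groups shared the removal of the meninges as far as this could be done, myelin removal on a Percoll gradient and a sort for live CD45+ and CD11b+ cells, so other brain cells are missing by design and border macrophages are left in small numbers. Droplet libraries (10X Genomics, 3′ chemistry) counted each transcript by its unique molecular identifier (UMI).

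Chemokines are small secreted proteins that bind G protein-coupled receptors on leukocytes and guide their migration. Ccl2, Ccl7 and Ccl12 lie close together in the genome and act on the receptor Ccr2, through which they draw monocytes out of the blood. Cxcl2 draws neutrophils through Cxcr2, and Cxcl10 is an interferon-inducible ligand of Cxcr3 on T and natural killer cells. Ccl6 and Ccl9 are rodent chemokines that act on Ccr1, while Cxcl16 is made as a membrane-anchored protein that binds Cxcr6 and can be shed from the cell surface. Induced chemokine genes are switched on within a short time by pathways such as NF-kB, AP-1 and interferon signalling, and macrophages of the brain borders are a known source of several of them.

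On GRCm38, Ccl2 (chromosome 11, 82035571 to 82037453), Ccl7 (82045712 to 82047525) and Ccl12 (82101845 to 82103400) followed each other on the plus strand, with 8258 bases between Ccl2 and Ccl7 and 54319 bases between Ccl7 and Ccl12. Ccl9 (83572919 to 83578636) and Ccl6 (83587882 to 83593087) lay 9245 bases apart on the minus strand of the same chromosome, and Cxcl16 (70453983 to 70459984, minus strand) lay farther away. Cxcl2 (90903871 to 90905938, plus strand) and Cxcl10 (92346638 to 92348889, minus strand) were on chromosome 5. No annotated gene overlapped any of the 8 on its own strand. The longest run of bases shared between transcripts was 25 for Ccl6 and Ccl9 and 23 for Ccl2 and Ccl7, both shorter than a read, so reads of these neighbours could be kept apart. Cxcl2 shared 86 of its 2239 possible stretches of 90 bases with Cxcl3, which had 0 UMIs in all libraries.

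Promoter sequences from 250 bases before to 50 bases after the start of the gene were taken from a table of RefSeq promoters (GRCm38.p6) that matched 5 of the 8 genes, and those of Ccl2, Ccl7 and Cxcl16 were not used here. Those of Ccl12, Cxcl2, Cxcl10 and Ccl9 are shown, since 3 of them belong to induced genes with different values in these libraries and the fourth to a constitutive gene. Capitals mark the matches to 5 motifs searched on both strands, namely AP-1 (TGANTCA), the NF-kB consensus, the interferon-stimulated response element (ISRE), C/EBP (TTNNGCAA) and the TATA box (TATAAA).
Ccl12, chr11:82101595-82101894, plus strand: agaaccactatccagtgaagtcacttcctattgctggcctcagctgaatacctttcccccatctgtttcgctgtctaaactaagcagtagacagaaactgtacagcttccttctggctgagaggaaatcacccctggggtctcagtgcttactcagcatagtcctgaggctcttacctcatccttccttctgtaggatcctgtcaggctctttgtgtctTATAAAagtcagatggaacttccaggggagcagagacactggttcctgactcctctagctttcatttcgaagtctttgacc
Cxcl2, chr5:90903649-90903948, plus strand: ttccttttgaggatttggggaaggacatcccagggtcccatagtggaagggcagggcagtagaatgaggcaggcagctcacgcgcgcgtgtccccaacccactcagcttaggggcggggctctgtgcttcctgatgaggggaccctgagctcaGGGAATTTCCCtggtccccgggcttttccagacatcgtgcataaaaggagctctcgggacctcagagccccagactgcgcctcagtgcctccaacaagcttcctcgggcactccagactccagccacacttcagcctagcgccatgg
Cxcl10, chr5:92348840-92349139, minus strand: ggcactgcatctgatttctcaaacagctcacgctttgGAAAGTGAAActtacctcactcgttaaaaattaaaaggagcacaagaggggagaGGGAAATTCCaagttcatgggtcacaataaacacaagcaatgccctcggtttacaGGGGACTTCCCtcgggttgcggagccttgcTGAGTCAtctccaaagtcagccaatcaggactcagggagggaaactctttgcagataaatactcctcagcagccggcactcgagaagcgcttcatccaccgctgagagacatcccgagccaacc
Ccl9, chr11:83578587-83578886, minus strand: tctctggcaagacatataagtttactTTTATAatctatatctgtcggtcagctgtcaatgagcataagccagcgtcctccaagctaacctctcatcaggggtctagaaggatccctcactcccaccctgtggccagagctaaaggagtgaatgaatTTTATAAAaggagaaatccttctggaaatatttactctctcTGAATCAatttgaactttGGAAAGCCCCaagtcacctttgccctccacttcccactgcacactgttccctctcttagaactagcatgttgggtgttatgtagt

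The Ccl12 window held only a TATA box match, 31 bases before the start. The Cxcl2 window held an NF-kB match that starts 97 bases before the start of the gene and overlaps a second match on the other strand. In the Cxcl10 window there was an ISRE match on the minus strand starting 213 bases before the start, NF-kB matches starting at 159, 104 and 103 bases before it, of which the latter pair overlap, and an AP-1 match at 74 bases before it. The constitutive gene Ccl9 had an AP-1 match at 53 and an NF-kB match at 35 bases before the start, and TATA box matches that overlap each other near 94 bases and another at 224 bases before it. Ccl6 (chr11:83593038-83593337) had no match to any of the 5 motifs, and the C/EBP motif was found in none of the 5 windows. Among 32851 promoter windows of the same length, the AP-1 motif was present in 7.81%, the NF-kB consensus in 8.46%, the ISRE in 3.44%, C/EBP in 10.8% and the TATA box in 13.6%. A match to these letters is a description of the window and not a bound site.

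Depth was 1059783 to 3233159 UMIs per library in 853 to 2185 kept cells, and levels are given as CPM, the UMIs of a gene scaled to 1000000 UMIs of the library, on which scale 3 UMIs correspond to 0.928 to 2.83. Of 27914 distinct barcodes, 503 (1.80%) occurred in more than 1 library. Microglia-like cells made up 17944 of the 18827 kept cells (95.3%), and the 10 microglial markers summed to between 33966 and 39791 CPM in every library. Border macrophage-like cells numbered 313, with 13 to 42 per library, in a cluster led by Pf4, Mrc1 and F13a1 (103 cells) and another led by MHC class II genes with Ms4a7, Clec12a, Pf4 and Ccr2 (210 cells). Of the 10 border macrophage markers, 8 were among the leading genes of the former and 5 among those of the latter. Ccr2 is also a monocyte marker, so the larger cluster may be mixed. Interferon-responsive-like cells numbered 341 and monocyte-like cells 131, while 59 cells led by Cd209a were left unnamed. Neutrophil markers, 7 genes, summed to 208 to 2289 CPM, with the highest sum in a DNC-NONE library. The 8 chemokines took no part in the clustering. The library of ENZ-NONE replicate 6 stood apart, since 41.4% of its cells were in a microglia-like cluster led by Adamts1, Fos, Egr1 and Dusp1 that held 8.10% of the cells of DNC-NONE replicate 1 and at most 3.04% of the cells of any other library. Results that rest on it are given with and without it. Neither of the 2 batches given by the labels held equal numbers of each group, and ENZ-NONE replicate 6 was the only ENZ-NONE library in batch 2.

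All 5 induced chemokines had their highest level in ENZ-NONE replicate 6, the other ENZ-NONE libraries differed by gene, and the constitutive chemokines varied little over the 12 libraries. How many of all genes were highest in that library was not counted, so the number is no result about the chemokines as a set. Over the 12 libraries the coefficient of variation of the CPM was 126% for Ccl12, 148% for Ccl2, 165% for Ccl7, 317% for Cxcl2 and 83.8% for Cxcl10. For Ccl6, Ccl9 and Cxcl16 it was 14.6%, 11.6% and 8.53%. Cxcl10 had 37 UMIs in all, so counting error is part of its value, and the constitutive genes had 2580 to 8349. These coefficients are not given without ENZ-NONE replicate 6. ENZ-NONE replicate 6 alone held 45.5% of all UMIs of Ccl12, 49.5% of those of Ccl2, 58.01% of those of Ccl7 and 92.8% of those of Cxcl2.

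**Figure D1:**
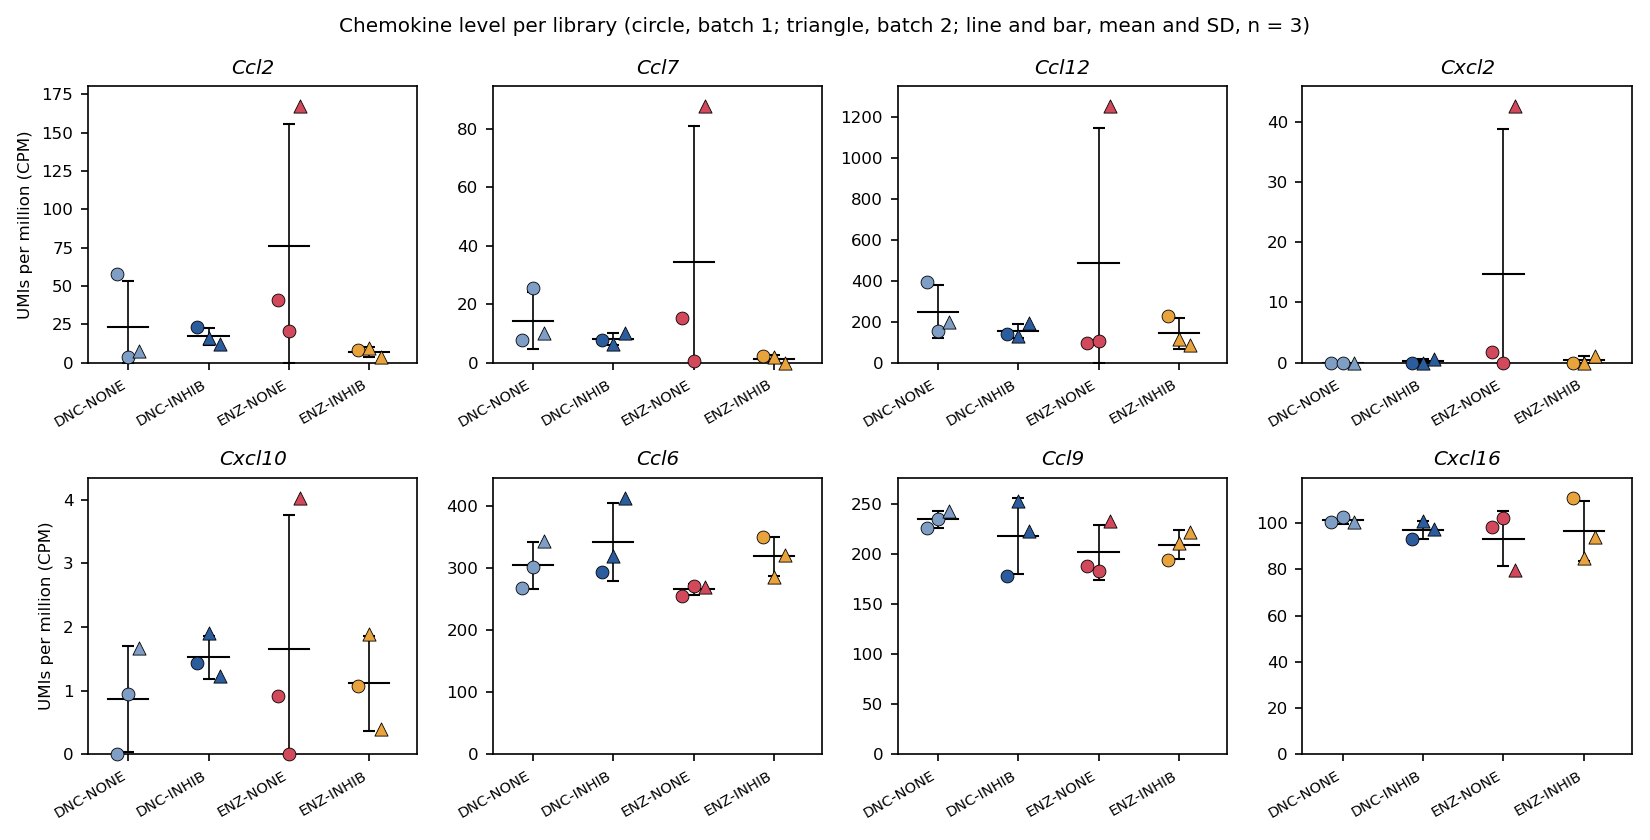
Level (CPM, linear axis from 0) of each chemokine in the 12 libraries by group, with a line and a bar for the mean and SD of 3 libraries (lower bars end at 0 where the SD exceeds the mean), circles for batch 1 and triangles for batch 2. For Ccl2, Ccl7, Ccl12 and Cxcl2 a single ENZ-NONE point, replicate 6, lies above all other libraries, whereas the points of Ccl6, Ccl9 and Cxcl16 lie close together in all 4 groups.

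Ccl12, a monocyte attractant of mice, had the most UMIs among the induced genes, 7496 in all. It measured 395, 154 and 198 CPM in DNC-NONE replicates 1, 2 and 3, from 987, 163 and 357 UMIs. In DNC-INHIB replicates 4, 5 and 6 it measured 138, 128 and 193 CPM, in ENZ-NONE replicates 4, 5 and 6 it measured 98.3, 105 and 1249 CPM, and in ENZ-INHIB replicates 1, 2 and 3 it measured 230, 114 and 86.9 CPM. Replicate 6 of ENZ-NONE was thus the highest of the 12 libraries and its replicates 4 and 5 were among the 3 lowest. By group mean the order was ENZ-NONE (484 ± 662, SD, n = 3), DNC-NONE (248.98 ± 128), DNC-INHIB (153 ± 34.8) and ENZ-INHIB (144 ± 76.0), and each neighbour in that order overlapped with the next.

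Ccl2, the best-known monocyte attractant, measured 58.03, 3.77 and 7.77 CPM in the DNC-NONE libraries (145, 4 and 14 UMIs) and 23.3, 16.3 and 12.1 CPM in the DNC-INHIB libraries. In the ENZ-NONE libraries it measured 40.9, 20.8 and 167 CPM (89, 32 and 456 UMIs), and in the ENZ-INHIB libraries 8.08, 9.80 and 3.51 CPM. Unlike Ccl12, Ccl2 was higher in all 3 ENZ-NONE libraries than in all 3 ENZ-INHIB libraries, while the ENZ-NONE values overlapped with those of DNC-NONE through DNC-NONE replicate 1 and with those of DNC-INHIB through its replicate 4. The means were 76.2 ± 79.3 (ENZ-NONE), 23.2 ± 30.2 (DNC-NONE), 17.2 ± 5.67 (DNC-INHIB) and 7.13 ± 3.25 (ENZ-INHIB) CPM (SD, n = 3), and only the last neighbours in this order, DNC-INHIB and ENZ-INHIB, did not overlap.

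Ccl7, the third monocyte attractant of this cluster of genes, had 412 UMIs in 86 cells. The DNC-NONE libraries measured 7.60, 25.5 and 9.99 CPM, the DNC-INHIB libraries 7.61, 6.46 and 10.2 CPM, the ENZ-NONE libraries 15.2, 0.651 and 87.6 CPM and the ENZ-INHIB libraries 2.15, 1.88 and 0 CPM. Much of it came from very few cells. A single cell held 22 of the 27 UMIs in DNC-NONE replicate 2, and another held 27 of the 33 UMIs in ENZ-NONE replicate 4. The ENZ-NONE values of Ccl7 ranged from below every Dounce library to above every one of the other 11 libraries.

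Cxcl2, the neutrophil attractant, had 125 UMIs in 13 cells, and 116 of these UMIs were in 9 cells of ENZ-NONE replicate 6. ENZ-NONE replicate 4 had 4 UMIs in 1 cell, DNC-INHIB replicate 6 had 2, ENZ-INHIB replicate 3 had 3, and the other 8 libraries had 0, which by counting error allows a level of up to 1.13 to 2.83 CPM. Cxcl10, the interferon-inducible ligand, had 37 UMIs in 26 cells, at most 11 UMIs in a library (ENZ-NONE replicate 6), and no group of 3 lay apart from the others. Neither gene passed the filter on low counts, and no fold change is given for them.

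The constitutive genes moved little. Of Ccl6 the DNC-NONE libraries held 268, 302 and 344 CPM, the DNC-INHIB libraries 294, 319 and 413 CPM, the ENZ-NONE libraries 256, 271 and 270 CPM and the ENZ-INHIB libraries 350, 286 and 322 CPM. All 3 ENZ-NONE libraries were below all 6 libraries with inhibitors, by group means of 266 ± 8.65 against 342 ± 62.7 and 319 ± 31.7 CPM (SD, n = 3), and overlapped with DNC-NONE. Ccl9 ranged from 177 CPM (DNC-INHIB replicate 4) to 253 CPM (DNC-INHIB replicate 5), so that a single group spanned the whole range. Cxcl16 ranged from 79.9 CPM (ENZ-NONE replicate 6) to 111 CPM (ENZ-INHIB replicate 1), and its 4 group means, 93.4 to 101 CPM, all overlapped.

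The share of cells with at least 1 UMI, with every cell thinned to 1000 UMIs so that depth was equal, gave the same picture. Ccl12 was found in 28.8% of cells of ENZ-NONE replicate 6 (95% Clopper-Pearson interval 26.7 to 31.0%), in 15.01% of DNC-NONE replicate 1 (13.4 to 16.7%) and in 5.03 to 9.56% of cells in the other 10 libraries. Without thinning these shares were 34.8%, 18.2% and 6.75 to 11.3%. For Ccl2 the shares were 5.89% in ENZ-NONE replicate 6 (4.83 to 7.10%), 3.64% in DNC-NONE replicate 1 (2.83 to 4.60%) and 1.59% in ENZ-NONE replicate 4 (1.03 to 2.34%), against 0.315 to 0.836% in the other 9 (unthinned 7.78%, 4.19%, 1.72% and 0.469 to 1.19%). Both the level and the number of positive cells of these chemokines were thus raised in the same libraries.

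Shares of constitutive chemokines were narrow by comparison. Thinned to 1000 UMIs, Ccl6 was found in 18.1 to 25.8% of cells, Ccl9 in 14.1 to 19.6% and Cxcl16 in 7.44 to 10.1% (unthinned 22.2 to 33.96%, 18.5 to 25.7% and 10.3 to 13.9%). Ccl7, Cxcl2 and Cxcl10 were found in at most 1.54%, 0.515% and 0.205% of the cells of any library. In monocyte-like cells, where these genes served as a reading of free RNA in the droplets, Ccl12 was found in 0 and Cxcl16 in 1 of 131 thinned cells (0.763%), at a median of 1855 UMIs against 1216 to 1578.5 in the microglia-like clusters. Ccl7 and Cxcl2 were found in 0 of them, but Ccl2 in 3 (2.29%), 2 of 33 cells in DNC-NONE replicate 1 and 1 of 23 in ENZ-NONE replicate 6. In DNC-NONE replicate 1 the level of Ccl2 was 44.1 CPM in monocyte-like cells (3 UMIs) and 44.7 CPM in microglia-like cells. The same 33 monocyte-like cells held 0 UMIs of Ccl12. In microglia-like cells of that library, Ccl12 was found in 240 and Ccl2 in 55 of 1732 thinned cells. Whether free RNA gave the Ccl2 UMIs of these monocyte-like cells was not tested. The other libraries had Ccl2 in none of their 4 to 14 monocyte-like cells after thinning. These are too few cells to tell low shares of Ccl2 from free RNA. These intervals cover counting error only.

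Tested across libraries with edgeR (quasi-likelihood, adjusted p under 0.05 and an absolute log2 fold change over 0.58), 0 of the 6 testable chemokines were called in ENZ-NONE against any other group. Against DNC-NONE 0 of 6 were called, where 0.405% of all 9882 genes tested were, and 0 had an unadjusted p under 0.05. Against DNC-INHIB 0 of 6 were called (background 0.799%) with 4 at an unadjusted p under 0.05, and against ENZ-INHIB 0 of 6 (background 0.344%) with again 4. DESeq2 also called 0 in each of the 3. With batch as a covariate, edgeR called Ccl2, Ccl7 and Ccl12 against DNC-INHIB (log2 fold changes 2.70, 2.86 and 1.71, edgeR adjusted p 0.000548, 0.00143 and 0.0471) and Ccl2 and Ccl7 against ENZ-INHIB (4.13 and 5.64, edgeR adjusted p 2.09e-06 and 4.19e-05), and 0 against DNC-NONE.

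The induced genes had large fold changes with large errors. In ENZ-NONE vs DNC-NONE the log2 fold changes were 1.60 for Ccl2 (SE 0.75), 1.67 for Ccl7 (SE 0.87) and 1.03 for Ccl12 (SE 0.77), with adjusted p (edgeR) of 0.727, 0.772 and 0.879. Against DNC-INHIB they were 2.33 (SE 0.58), 2.27 (SE 0.79) and 1.74 (SE 0.71), with adjusted p (edgeR) of 0.107, 0.334 and 0.463. Against ENZ-INHIB they were 3.56 (SE 0.71), 4.89 (SE 1.20) and 1.86 (SE 0.77), with adjusted p (edgeR) of 0.0738, 0.255 and 0.994. The constitutive genes had small fold changes with small errors in the same comparisons, from -0.33 (Ccl6 against DNC-INHIB, SE 0.13) to -0.01 (Ccl9 against ENZ-INHIB, SE 0.12). The largest SE among these 9 values was 0.14.

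Without ENZ-NONE replicate 6 the induced genes went separate ways. Ccl12 turned to lower in ENZ-NONE, by a log2 fold change of -1.30 against DNC-NONE (SE 0.28, edgeR adjusted p 0.0486) and -0.59 against DNC-INHIB (SE 0.14, edgeR adjusted p 0.0242), and was called in both. Ccl2 was at 0.22 against DNC-NONE (SE 0.59, edgeR adjusted p 0.961) and was called higher against DNC-INHIB (0.96, SE 0.25, edgeR adjusted p 0.0449) and against ENZ-INHIB (2.17, SE 0.32, edgeR adjusted p 0.000615). Ccl7 was at -0.47 against DNC-NONE (SE 0.62), 0.14 against DNC-INHIB (SE 0.46) and 2.74 against ENZ-INHIB (SE 0.80), with none of the 3 called. Ccl12 was at -0.45 against ENZ-INHIB (SE 0.25), which was not called. When DNC-NONE replicate 1 was left out as well, Ccl2 was called against DNC-NONE (2.36, edgeR adjusted p 0.000342) and Ccl12 was again called as lower (-0.80, edgeR adjusted p 0.000619). That setting was added after the data were seen. It took out the library with the highest Ccl2 and Ccl12 outside ENZ-NONE. Leaving out ENZ-NONE replicate 5 instead gave calls for Ccl2 against DNC-INHIB (2.73, edgeR adjusted p 0.0212), and for Ccl2 (3.95, 0.00641) and Ccl7 (5.37, 0.0138) against ENZ-INHIB, where leaving out ENZ-NONE replicate 4 gave a call for Ccl2 (3.88, 0.028).

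**Figure D2:**
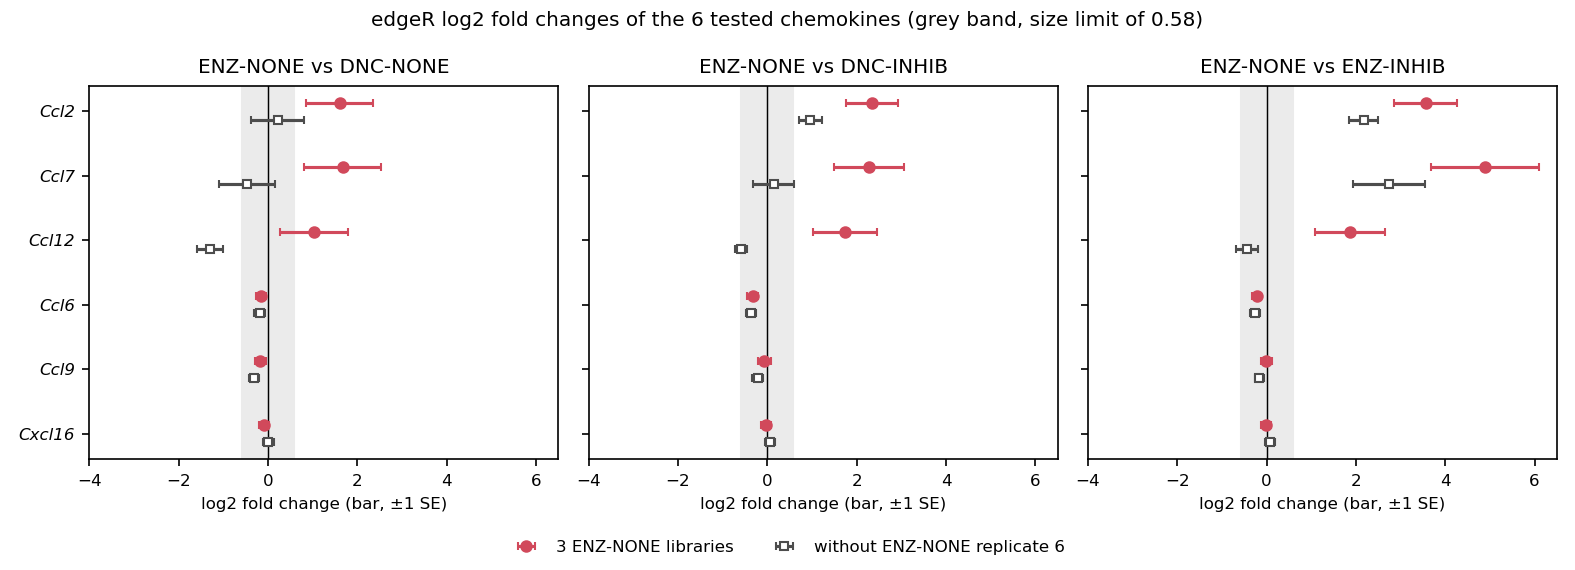
Log2 fold changes from edgeR (horizontal axis, bars ±1 SE) of the 6 tested chemokines in ENZ-NONE against each other group, with all 3 ENZ-NONE libraries (red circles) and without ENZ-NONE replicate 6 (open squares), the grey band marking the size limit of 0.58. Ccl12 passes from 1.03, 1.74 and 1.86 to -1.30, -0.59 and -0.45, Ccl2 remains above 0, and Ccl6, Ccl9 and Cxcl16 stay inside the band in both.

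The same split was seen within batches. In batch 1 the mean Ccl12 level was 102 CPM in ENZ-NONE (2 libraries), 274 with DNC-NONE (2), 138 with DNC-INHIB (1) and 230 with ENZ-INHIB (1), so that ENZ-NONE was the lowest. In batch 2 it was 1249 CPM in ENZ-NONE (1 library), 198 with DNC-NONE (1), 161 with DNC-INHIB (2) and 100 with ENZ-INHIB (2), so that ENZ-NONE was the highest. For Ccl2 the batch 1 means were 30.8, 30.9, 23.3 and 8.08 CPM and the batch 2 means 167, 7.77, 14.2 and 6.65 CPM in the same order of groups. With 1 ENZ-NONE library in batch 2, that library and the batch cannot be told apart.

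Between the remaining groups, Ccl7 was the only chemokine called when batch was not in the fit. In DNC-NONE vs DNC-INHIB 0 of 6 were called (background 0.0304%), with 1 at an unadjusted p under 0.05 and 0 called by DESeq2. In ENZ-INHIB vs DNC-INHIB 1 of 6 was called (background 0.354%), Ccl7 at a log2 fold change of -2.64 (SE 0.52, edgeR adjusted p 0.0302), which DESeq2 also called. In ENZ-INHIB vs DNC-NONE 1 of 6 was called (background 0.314%), again Ccl7, at -3.25 (SE 0.63, edgeR adjusted p 0.0425), which DESeq2 did not call. With batch as a covariate, Ccl2 was called as well in ENZ-INHIB vs DNC-INHIB (-1.21, edgeR adjusted p 0.0257), and Ccl7 was no longer called in ENZ-INHIB vs DNC-NONE (-3.02, edgeR adjusted p 0.0645). The border macrophage-like class held 102 of the 173 Ccl7 UMIs outside ENZ-NONE replicate 6 (59.0%). It had 17, 25 and 26 cells in the ENZ-INHIB libraries, 16, 30 and 38 in DNC-INHIB and 33, 42 and 20 in DNC-NONE. Its cluster led by Pf4 and Mrc1 held 23 of these UMIs (13.3%). That cluster had 11 cells in ENZ-INHIB (3, 6 and 2), 35 in DNC-INHIB (6, 17 and 12) and 41 in DNC-NONE (14, 18 and 9). The MHC class II-led cluster had 57, 49 and 54 cells in the same order of groups. The part of cell numbers in the fall of Ccl7 was not tested. The call against DNC-INHIB was lost without any of DNC-INHIB replicates 4, 5 and 6 or ENZ-INHIB replicates 2 and 3 (edgeR adjusted p 0.0547, 0.0598, 0.157, 0.0837 and 0.11), and the call against DNC-NONE without DNC-NONE replicate 2, ENZ-INHIB replicate 2 or ENZ-INHIB replicate 3 (0.132, 0.148 and 0.241). Counts over all cells cannot tell fewer border macrophages from less Ccl7 per cell.

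The design also allows a test of whether the inhibitors acted differently under digestion and under Dounce homogenisation. For this interaction 0 of 6 chemokines were called by edgeR (background 0.172%), with 2 at an unadjusted p under 0.05 and 0 called by DESeq2. The interaction was 2.81 for Ccl2 (SE 1.14), 4.31 for Ccl7 (SE 1.55) and 1.15 for Ccl12 (SE 0.96) on the log2 scale, each with an edgeR adjusted p of 1.00, while Ccl6, Ccl9 and Cxcl16 lay between -0.12 and -0.05. Without ENZ-NONE replicate 6 alone the interaction was 1.43 for Ccl2 (SE 0.84), 2.15 for Ccl7 (SE 1.01) and -1.18 for Ccl12 (SE 0.45), with 0 called. Without DNC-NONE replicate 1 alone, that of Ccl2 was 4.97 (edgeR adjusted p 0.204). Only with both libraries left out, a setting added after the data were seen, was Ccl2 called, at 3.58 (edgeR adjusted p 0.0011).

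The classes of cells that held the transcripts differed by gene. Microglia-like cells, 95.3% of all cells, held 89.4% of the UMIs of Ccl9, 89.1% of Cxcl16 and 86.8% of Ccl6, but 70.7% of Ccl2, 68.5% of Ccl12 and 24.3% of Ccl7. Border macrophage-like cells, 1.66% of all cells, held 68.2% of Ccl7, 20.5% of Ccl2, 13.3% of Ccl12 and 8.06% of Cxcl16. Without ENZ-NONE replicate 6 these shares were 59.0%, 10.3%, 15.4% and 8.38%. Interferon-responsive-like cells, 1.81% of all cells, held 17.5% of the Ccl12 UMIs, and 25.9% without ENZ-NONE replicate 6. Monocyte-like cells, 0.696% of all cells, held 7.05% of the Ccl6 UMIs.

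**Figure D3:**
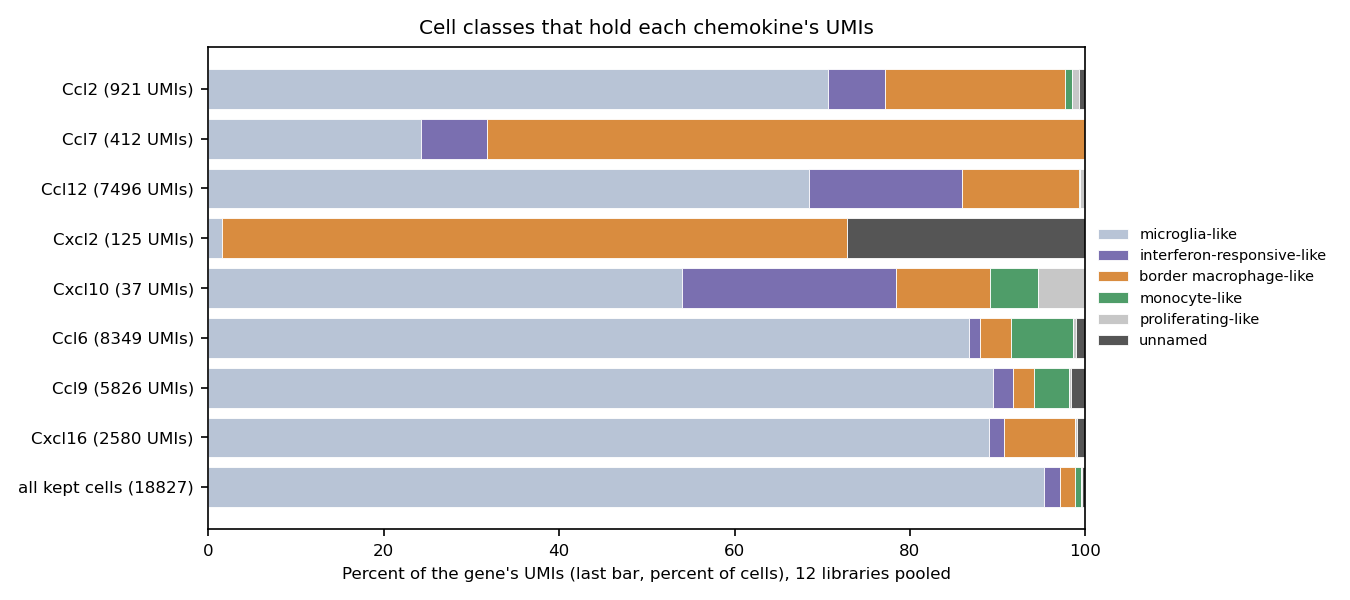
Share of the UMIs of each chemokine, 12 libraries pooled, that lay in each class of cells (percent, horizontal axis), with the share of all kept cells in the lowest bar. Ccl7 and Cxcl2 lie mostly outside microglia-like cells, Ccl12 and Ccl2 in part, and Ccl6, Ccl9 and Cxcl16 mostly within them.

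In border macrophage-like cells, Cxcl16 and Ccl12 had a higher CPM than in microglia-like cells of the same library in 12 of 12 libraries, Ccl2 and Ccl6 in 11, Ccl7 in 9 and Ccl9 in 8. These are values of classes drawn from the same cells and carry no test. With the 9 libraries outside ENZ-NONE pooled, the ratio of border macrophage-like to microglia-like CPM was 87.0 for Ccl7, 11.6 for Ccl12, 8.45 for Ccl2, 4.64 for Cxcl16, 1.91 for Ccl6 and 1.33 for Ccl9. In the ENZ-NONE libraries it was 185 for Ccl7, 8.504 for Ccl12, 19.3 for Ccl2, 3.25 for Cxcl16, 2.08 for Ccl6 and 1.16 for Ccl9. With ENZ-NONE replicate 6 left out, replicates 4 and 5 gave 364 for Ccl7, 27.95 for Ccl12, 2.20 for Ccl2, 4.05 for Cxcl16, 2.41 for Ccl6 and 1.25 for Ccl9. The ratio of 364 rested on 29 Ccl7 UMIs in border macrophage-like cells, 27 of them in 1 cell of replicate 4, over 5 UMIs in microglia-like cells. For Ccl12, 90 UMIs lay in 5 border macrophage-like cells of replicate 4, with 42 in 1 cell. Ccl7 had the highest of these 6 ratios in all 3 sets of libraries, while the ratio of Ccl2 in ENZ-NONE rested on replicate 6, as these cells had 4, 0 and 141 Ccl2 UMIs in the 3 ENZ-NONE libraries.

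Level by library shows how uneven this was for the induced genes. Border macrophage-like cells of the DNC-NONE libraries had Ccl12 at 4017, 908 and 1072 CPM, those of DNC-INHIB at 716, 699 and 759 CPM, those of ENZ-NONE at 2474, 341 and 6674 CPM and those of ENZ-INHIB at 1806, 1174 and 289 CPM. For Ccl7 the same cells had 183, 61.5 and 588 CPM (DNC-NONE), 0, 99.8 and 471 CPM (DNC-INHIB), 797, 0 and 3219.8 CPM (ENZ-NONE) and 111, 46.96 and 0 CPM (ENZ-INHIB). Of the 179 Ccl7 UMIs in border macrophage-like cells of ENZ-NONE replicate 6, 171 were in 12 cells of the Pf4-led and Mrc1-led cluster, along with 135 Ccl2 UMIs, so 9 of those 12 cells had Ccl7, 9 had Ccl2 and 10 had Ccl12. Cxcl16 in border macrophage-like cells was between 180 CPM (ENZ-NONE replicate 6) and 811 CPM (ENZ-INHIB replicate 1), with no group apart from the rest.

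By share of positive cells (thinned to 1000 UMIs), Ccl12 was found in 19.0 to 64.5% of border macrophage-like cells and 4.22 to 28.1% of microglia-like cells of a library. Cxcl16 was found in 12.9 to 43.8% and 6.98 to 10.0%, Ccl6 in 17.6 to 46.2% and 16.8 to 25.3%, and Ccl9 in 4.0 to 37.5% and 13.7 to 19.1%. Ccl2 was found in 0 to 32.3% of border macrophage-like and 0.257 to 5.20% of microglia-like cells, and Ccl7 in 0 to 35.5% and 0 to 0.786%. With 13 to 42 border macrophage-like cells in a library, each share rests on few cells.

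**Figure D4:**
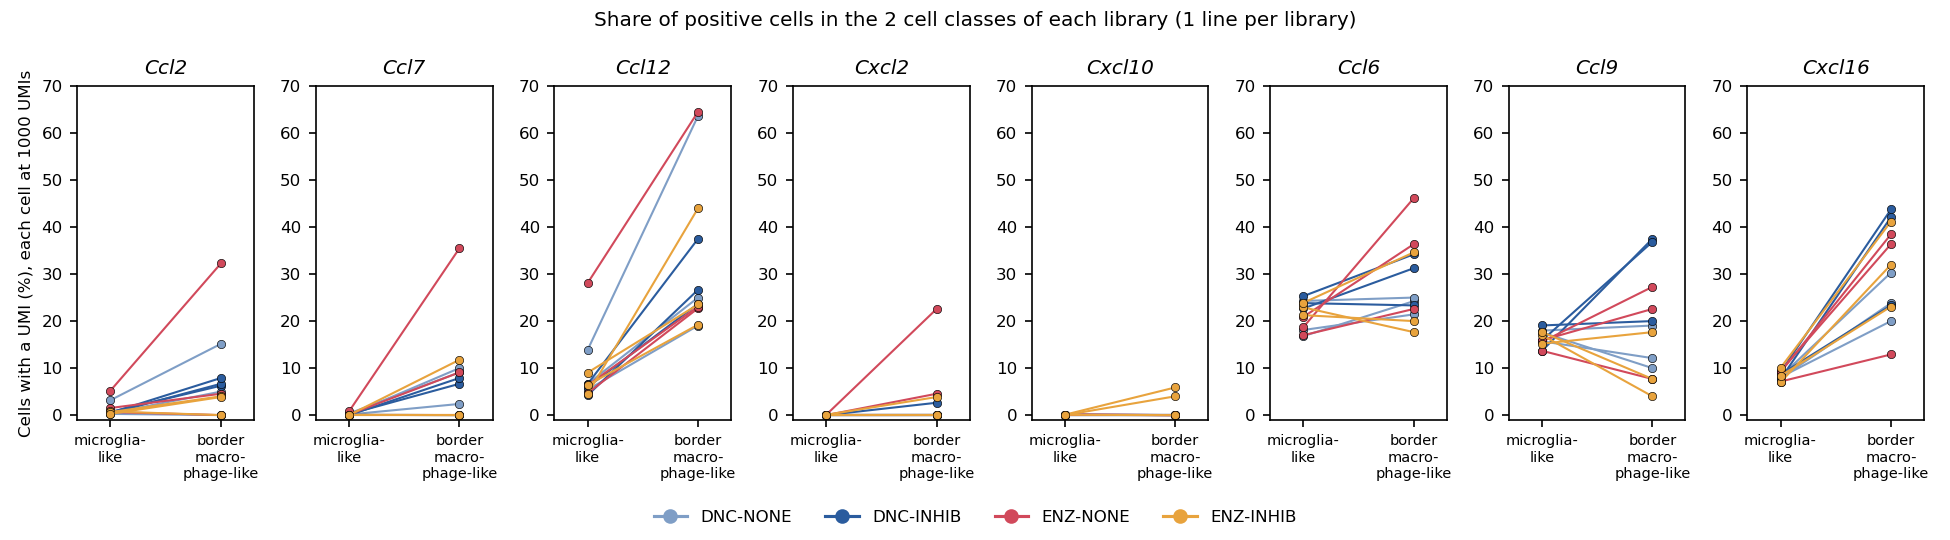
Share of cells with a UMI (percent, each cell thinned to 1000 UMIs) in microglia-like and border macrophage-like cells, 1 line per library, coloured by group. Every line of Ccl12 and Cxcl16 rises toward border macrophage-like cells, while lines of Ccl9 go both ways and the highest lines of Ccl2, Ccl7 and Cxcl2 belong to an ENZ-NONE library, replicate 6.

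Cxcl2 was absent from most of the sample. Of its 125 UMIs, 89 were in border macrophage-like cells, 34 in a single cell of the unnamed Cd209a-led cluster of ENZ-NONE replicate 6, and 2 in the 17944 microglia-like cells. In ENZ-NONE replicate 6 the MHC class II-led border macrophage-like cluster held 70 Cxcl2 UMIs in 4 of its 19 cells and the Pf4-led cluster held 11 in 3 of its 12 cells. Cxcl10 had 20 of its 37 UMIs in microglia-like cells and 9 in interferon-responsive-like cells.

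Interferon-responsive-like cells, a set that is defined by genes such as Ifit3 and Isg15, carried Ccl12 in every preparation. Their Ccl12 level was 493 to 5579.9 CPM with a median of 2147 CPM over the 12 libraries, and 34.6% of the 341 cells were positive after thinning. In the 9 libraries outside ENZ-NONE the pooled level was 2577 CPM, and in ENZ-NONE it was 3005 CPM with and 1023 CPM without replicate 6 (15, 46 and 256 UMIs in the 3 libraries). The microglia-like cells of those 9 libraries had 111 CPM. The cell with the most Ccl12 of all, 107 UMIs, belonged to this class in DNC-INHIB replicate 6. Ccl6, Ccl9 and Cxcl16 were at 213, 276 and 89.4 CPM in this class, against 286, 206 and 90.7 CPM in microglia-like cells of all libraries.

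Monocyte-like cells had a chemokine content of their own. Ccl6 was at 2339.9 CPM and Ccl9 at 926 CPM, all 12 libraries pooled, and 75.6% and 50.4% of the 131 thinned cells were positive, while Ccl7 and Cxcl2 had 0 UMIs, Ccl12 2, Cxcl16 1 and Ccl2 7. In microglia-like cells Ccl6 and Ccl9 were at 286 and 206 CPM. A microglia-like cluster led by Lpl, Cst7 and Fam20c (494 cells) also had more of the constitutive chemokines than the class as a whole, with Ccl6 at 756, Ccl9 at 425 and Cxcl16 at 281 CPM.

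In microglia-like cells the preparations were compared as ENZ-NONE against the mean of the other 3 groups. Ccl2, Ccl12, Ccl6, Ccl9 and Cxcl16 could be tested in these cells, whereas Ccl7 did not pass the filter on low counts here. By edgeR 1 of these 5 testable chemokines was called (background 0.641%), Ccl2 at a log2 fold change of 2.50 (SE 0.47, edgeR adjusted p 0.00603). Its level in these cells was 39.9, 20.4 and 116 CPM (ENZ-NONE), 44.7, 2.12 and 2.97 CPM (DNC-NONE), 21.9, 12.1 and 6.94 CPM (DNC-INHIB) and 7.98, 6.70 and 2.43 CPM (ENZ-INHIB), so the groups overlapped through DNC-NONE replicate 1 and DNC-INHIB replicate 4. DESeq2 did not call Ccl2 with all libraries. Without ENZ-NONE replicate 6 the edgeR value was 1.47 (edgeR adjusted p 0.393). Without that library and DNC-NONE replicate 1, a setting added after the data were seen, it was 2.45 (edgeR adjusted p 3.38e-05). Ccl12 had a log2 fold change of 2.01 (SE 0.53, edgeR adjusted p 0.102), which was called without ENZ-NONE replicate 4, ENZ-NONE replicate 5 or DNC-NONE replicate 1 (2.54, 2.49 and 2.29, edgeR adjusted p 0.00439, 0.0125 and 0.0482) and turned to -0.80 without ENZ-NONE replicate 6. Ccl6, Ccl9 and Cxcl16 were at -0.25, -0.11 and -0.02.

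In border macrophage-like cells 724 genes could be tested, among them Ccl7, Ccl12, Ccl6, Ccl9 and Cxcl16 but not Ccl2. The genes called in the 2 classes can therefore not be set against each other, since each was untested in the other class. Of these 5 chemokines 1 was called by edgeR (background 4.14%). This was Ccl7 at a log2 fold change of 3.498 (SE 0.65, edgeR adjusted p 0.00119), which fell to 1.84 (edgeR adjusted p 0.274) without ENZ-NONE replicate 6 and was not called by DESeq2. Ccl12 was at 1.56 (SE 0.48, edgeR adjusted p 0.0787), and was called without DNC-NONE replicate 1 or ENZ-NONE replicate 5 (1.90 and 1.99, edgeR adjusted p 0.00978 and 0.000966). Cxcl16, the constitutive gene that was richest in these cells relative to microglia, was at -0.53 (SE 0.32, edgeR adjusted p 0.56). Whether ENZ-NONE acted differently in the 2 classes was tested within animals, where 0 of 5 chemokines were called by edgeR (background 1.24%) and 0 had an unadjusted p under 0.05, with 0.97 for Ccl7 (SE 1.39) and 0.06 for Ccl12 (SE 0.41). DESeq2 was not run for this contrast.

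The Adamts1-led cluster held most of the Ccl12 of ENZ-NONE replicate 6. There, 86.5% of the microglia-like Ccl12 UMIs were in 723 cells of this cluster, at 2087 CPM and in 44.7% of the thinned cells. Outside it the microglia-like cells of that library measured 268 CPM, against 190.4 CPM in DNC-NONE replicate 1 and 51.7 to 103 CPM in the other 10. In ENZ-INHIB replicate 1, 39 cells of this cluster held 164 Ccl12 UMIs (2918 CPM), 51.3% of its microglia-like Ccl12. Ccl2 outside the cluster was at 55.3 CPM in ENZ-NONE replicate 6, 37.0 in DNC-NONE replicate 1, 36.0 in ENZ-NONE replicate 4 and 18.3 in ENZ-NONE replicate 5, with the other 8 libraries at 2.03 to 13.6 CPM. Both genes therefore remained highest in the same library with these cells set aside, and by much smaller margins.

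**Figure D5:**
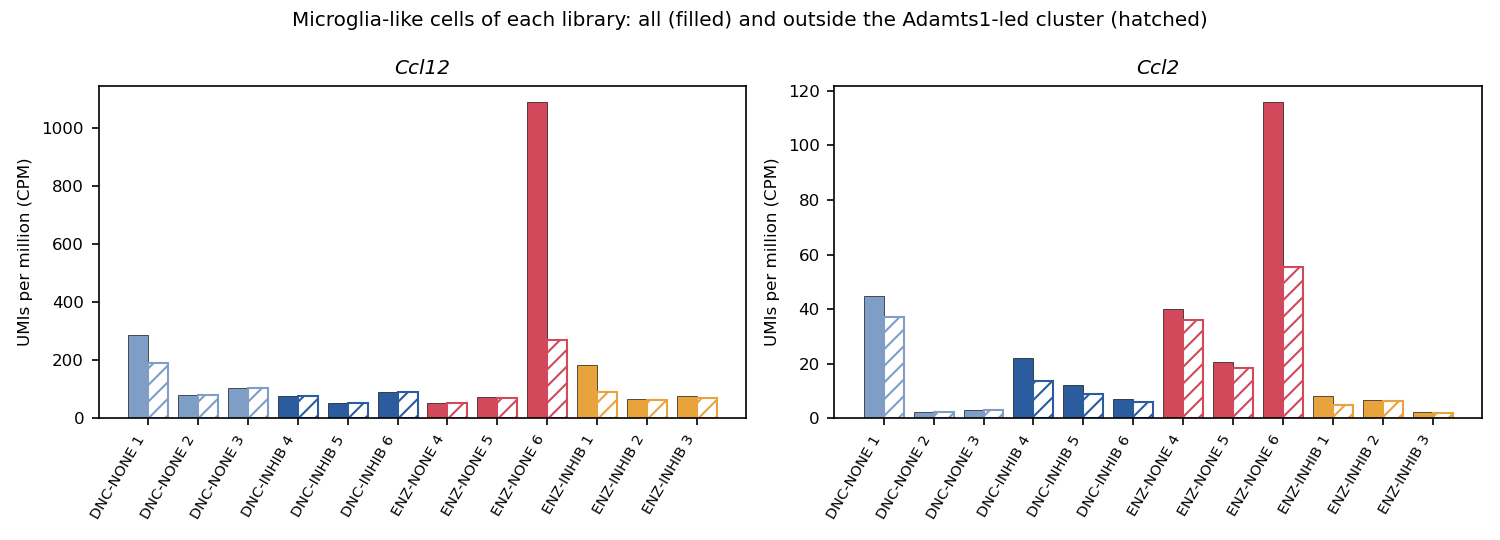
Ccl12 and Ccl2 (CPM, linear axis from 0) in all microglia-like cells of each of the 12 libraries (filled bars) and in those outside the Adamts1-led cluster (hatched bars), with no error bar since each bar is a single library. ENZ-NONE replicate 6 falls to 268 CPM for Ccl12 and 55.3 CPM for Ccl2 and still has the highest bar of each panel.

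Ccl2 and Ccl12 were often found in the same microglia-like cells. In ENZ-NONE replicate 6, Ccl12 was found in 58.1% of the 86 cells with Ccl2 and in 26.4% of those without (each cell thinned to 1000 UMIs). DNC-NONE replicate 1, a library without digestion, held Ccl12 in 34.5% of 55 Ccl2-positive cells and in 13.2% of the rest. Of the Ccl2-positive cells of ENZ-NONE replicate 6, 54.7% also had the immediate early gene Fos and 34.9% had Ccl4, against 37.0% and 19.3% of the others. In DNC-NONE replicate 1, 5.45% (3 cells) had Fos and 7.27% (4 cells) had Ccl4, against 2.62% and 0.894%. Fos and Ccl4 were rarer there in all microglia-like cells, in 47 and 19 of 1732 against 627 and 333 of 1653 in ENZ-NONE replicate 6. The constitutive genes did not divide the cells in this way, as Ccl12 was found in 26.7% of cells with Ccl6 and 28.4% without, and in 28.0% of cells with Cxcl16 and 28.1% without, in ENZ-NONE replicate 6. These are counts of cells within a library and carry no test.

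Genes with the most similar levels over the 12 libraries, by Pearson correlation of log2 CPM among the 9881 other tested genes, were Tsc22d2 (0.96), Cebpb (0.93) and Klf10 (0.91) for Ccl2, and Cdc42ep3 (0.96), Bcl3 (0.95) and Cdkn2d (0.95) for Ccl12. Without ENZ-NONE replicate 6 these were 0.93, 0.88 and 0.84 for Ccl2, and 0.87, 0.88 and 0.91 for Ccl12. Among the chemokines themselves, Ccl12 correlated with Ccl2 at 0.68 and with Ccl7 at 0.68, which dropped to 0.28 and 0.35 without that library. For Cxcl16 the most similar were Ppp3ca (0.92), Lyst (0.89) and Aatk (0.87), for Ccl9 Phax, Mrps7 and Twistnb (each 0.89), for Ccl6 Ckap4 (0.85), Aar2 and Pstk (each 0.80), and for Ccl7 BC003965 (0.90), Atp13a1 (0.89) and Rab23 (0.86). The points share animals, depth and batch, and the correlations are given as a description.

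Other genes of the chemokine system place these values. Of 27 further ligand genes 26 were in the tables and 7 could be tested, of which Ccl3 and Ccl4, known early response genes of microglia, were called higher in ENZ-NONE in all 3 comparisons (log2 fold change 3.17 to 4.17 and 3.21 to 4.02), with medians over the 7 of 0.07, 0.05 and 0.59. Ccl3 measured 207, 234 and 553 CPM and Ccl4 309, 238 and 1058 CPM in ENZ-NONE replicates 4, 5 and 6, so both were high in all 3 libraries of the group, unlike Ccl12. Of 23 chemokine receptor genes 5 could be tested, Ccr1 and Ccr2 among them, and 0 were called by edgeR in those 3 comparisons. Of all 9882 genes tested 0.344 to 0.799% were called there, so 0 of 5 is no result about the receptors. Ccr2, the receptor of the monocyte attractants, was at 18.8 to 96.8 CPM and Ccr1, the receptor of Ccl6 and Ccl9, at 5.93 to 45.1 CPM. Ccr3, Cxcr2 and Cxcr3 reached at most 4.56, 4.72 and 5.93 CPM, and Cxcr6, the receptor of Cxcl16, had 1 UMI in all.

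Regulators of chemokine transcription and decay differed in how they moved. All 6 AP-1 genes (Fos, Fosb, Jun, Junb, Jund and Atf3) were called higher in ENZ-NONE in each of the 3 comparisons, with medians of 3.02, 3.66 and 3.48 on the log2 scale. Of 10 NF-kB genes, Nfkbid (2.098) and Nfkbiz (2.32), both inducible regulators of the pathway, were called against DNC-INHIB and 0 in the other 2 comparisons. Of 3 genes for mRNA decay factors, Zfp36, which binds AU-rich elements of cytokine transcripts, was called in all 3 comparisons (2.84, 3.25 and 3.40), and Zfp36l1 against DNC-INHIB (0.73) and ENZ-INHIB (0.78). Of 11 interferon pathway genes and of the 2 sheddase genes Adam10 and Adam17, 0 were called in these comparisons. That is near the share over all genes and so no result about these 2 lists. Several of these genes, among them Fos, Jun, Ccl3 and Ccl4, were named by the study from these libraries, so their direction is not independent evidence.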

How the data were processed

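Cells came from 12 mice, 3 in each of 4 groups assigned from the sample titles. The files hold UMI counts per gene and cell as the authors deposited them, made with Cell Ranger 3.0.0 on mm10 per the labels and the study's methods, with bcl2fastq and Seurat also listed there. Samples of a group are separate animals.

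Cells with at least 500 genes, 1000 UMIs and at most 10% mitochondrial UMIs were kept (18830 of 28426 barcodes). Removal of cells with several markers of neurons, astrocytes, oligodendrocytes, vessels, choroid plexus or red blood cells took 3 (0.0159%). This rule did not look for doublets between myeloid classes, so doublets were not effectively removed. Clusters (scanpy 1.11.5, 2000 variable genes, 30 components, Leiden resolution 1) were built without the 8 chemokines and without the study's list of activation genes, and named from marker lists. Ccl12 was among the leading genes of the Adamts1-led cluster and Ccl7 of the Pf4-led cluster. Counts were summed per library, filtered by expression over the 12 libraries (9882 genes) and tested per pair of groups with edgeR 4.0.16 (TMM, quasi-likelihood, R 4.3.3), 2-sided, with Benjamini-Hochberg adjustment over all genes tested. DESeq2 1.42.0 was an alternative. The SE is the absolute log2 fold change divided by the square root of F. Pairs of libraries within a group differed by 1.60 to 6.50 times sampling noise (chi-square per degree of freedom), so none was a duplicate. The fitting code was tested on simulated data.

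The named genes are the 8 chemokines, the called members of the lists of other ligands, receptors, AP-1, NF-kB, mRNA decay, interferon and sheddase genes, and the 3 genes with the most similar levels to each chemokine. Members and lists were chosen with earlier results of these data known. Positions are from GENCODE vM21 and promoters from RefSeq. Alternatives covered the tool, the low-count filter, the cell filter, thinning, a batch term, all 4 groups in the fit, microglia-like cells alone, a replicate block and leaving out libraries.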

Additional observations from a re-analysis of the deposited data

Results flagged for a closer look

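The report uses only cells that passed the filters. In the barcodes that failed them, summed per library, 5 of the 8 chemokines were higher in an ENZ-NONE library than in all 9 libraries of the other groups. How many of all genes did so was not counted, so the number is no result about the chemokines as a set. Ccl12 was at 1688 CPM (384 UMIs) in ENZ-NONE replicate 6, where the highest of the other 9 was 677 CPM. Cxcl2 was at 110 CPM (25 UMIs) in that library, against at most 1.67 CPM. Ccl2 was at 145 CPM (33 UMIs) in ENZ-NONE replicate 6 and 73.5 CPM (37 UMIs) in replicate 4, against at most 65.1 CPM. Ccl7 was at 106 CPM (24 UMIs) and 31.8 CPM (16 UMIs) in the same replicates, against at most 19.9 CPM. The constitutive gene Ccl6 was at 462 CPM (105 UMIs) in ENZ-NONE replicate 6, against at most 356 CPM. Groups of 3 libraries are too small for a check of single outlying values.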

How the results depend on the processing

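Depth limits Cxcl2, Cxcl10 and the border macrophage-like class most, since 3 UMIs equal up to 2.83 CPM of a library and each group has 3 animals. Of 181 recomputed counts, 117 stayed within 1.5 times the value given and 64 moved, and the cause of a change was not tested except where stated. For each setting that follows, the count of called chemokines is given where it moved. Without the low-count filter there were 4 in ENZ-NONE vs DNC-NONE, 4 in ENZ-NONE vs DNC-INHIB, 4 in ENZ-NONE vs ENZ-INHIB, 2 in DNC-NONE vs DNC-INHIB, 2 in ENZ-INHIB vs DNC-INHIB, 3 in ENZ-INHIB vs DNC-NONE, 3 in the interaction of digestion and inhibitors, 3 in microglia-like cells and 4 in border macrophage-like cells, where the prior degrees of freedom became infinite in the 6 comparisons of groups (8.07 to 13.7 with the filter), so that a common spread replaced that of each gene. With batch as a covariate there were 3 in ENZ-NONE vs DNC-INHIB, 2 in ENZ-NONE vs ENZ-INHIB, 2 in ENZ-INHIB vs DNC-INHIB and 0 in ENZ-INHIB vs DNC-NONE. DESeq2 gave 0 in ENZ-INHIB vs DNC-NONE, 0 in microglia-like cells and 0 in border macrophage-like cells, and the legacy robust form of edgeR, added after the data were seen, 0 in ENZ-INHIB vs DNC-NONE. With all 4 groups in the fit there were 0 in ENZ-INHIB vs DNC-INHIB and 0 in ENZ-INHIB vs DNC-NONE, in microglia-like cells only 1 in ENZ-NONE vs DNC-INHIB, 1 in ENZ-NONE vs ENZ-INHIB, 0 in ENZ-INHIB vs DNC-INHIB and 0 in ENZ-INHIB vs DNC-NONE, in sums of thinned cells 1 in ENZ-NONE vs ENZ-INHIB and 0 in ENZ-INHIB vs DNC-NONE, and with the looser cell filter 0 in ENZ-INHIB vs DNC-INHIB and 0 in ENZ-INHIB vs DNC-NONE. Without ENZ-NONE replicate 6 and DNC-NONE replicate 1 together, also added after the data were seen, there were 2 in ENZ-NONE vs DNC-NONE, 1 in the interaction of digestion and inhibitors and 0 in border macrophage-like cells. By share of cells, 5 of the 8 chemokines had their highest group mean in ENZ-NONE, and 3 when cells were thinned to 2000 UMIs. These 5 were Ccl2, Ccl7, Ccl12, Cxcl2 and the constitutive gene Cxcl16, without the induced gene Cxcl10. The same count over all genes was not made, so it gives no result about the chemokines as a set.

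Log2 fold changes whose sign turned were, with batch as a covariate, Ccl12 at -0.11 (ENZ-NONE vs DNC-NONE), Ccl9 at 0.072 (ENZ-NONE vs DNC-INHIB) and Ccl9 at 0.084 (ENZ-NONE vs ENZ-INHIB); in sums of thinned cells, Cxcl16 at 0.057 (ENZ-NONE vs DNC-NONE), Cxcl16 at 0.045 (ENZ-NONE vs ENZ-INHIB), Cxcl16 at -0.087 (DNC-NONE vs DNC-INHIB), Cxcl16 at 0.0079 (ENZ-INHIB vs DNC-NONE) and Cxcl16 at 0.13 (the interaction of digestion and inhibitors). With the looser cell filter these were Cxcl16 at 0.021 (ENZ-NONE vs DNC-NONE), Ccl9 at -0.0025 and Cxcl16 at -0.021 (DNC-NONE vs DNC-INHIB), Cxcl16 at 0.020 (ENZ-INHIB vs DNC-INHIB) and Cxcl16 at 0.040 (ENZ-INHIB vs DNC-NONE), and in microglia-like cells only Cxcl16 at 0.020 (ENZ-NONE vs ENZ-INHIB), Ccl7 at -0.68 (DNC-NONE vs DNC-INHIB) and Ccl12 at 0.50 (ENZ-INHIB vs DNC-INHIB). Without both libraries they were Ccl7 at -0.81 and Ccl12 at -0.80 (ENZ-NONE vs DNC-NONE), Ccl12 at -0.65 and Cxcl16 at 0.016 (the interaction of digestion and inhibitors), Ccl12 at -0.51 and Cxcl16 at 0.075 (microglia-like cells) and Ccl6 at 0.23 and Ccl9 at 0.049 (border macrophage-like cells).

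Leaving out 1 library at a time, the count of called chemokines ranged from 0 to 1 in ENZ-NONE vs DNC-NONE, from 0 to 2 in ENZ-NONE vs DNC-INHIB, from 0 to 2 in ENZ-NONE vs ENZ-INHIB, from 0 to 1 in ENZ-INHIB vs DNC-INHIB, from 0 to 2 in ENZ-INHIB vs DNC-NONE, from 0 to 3 in microglia-like cells and from 0 to 3 in border macrophage-like cells. The count by share ranged from 1 to 5. Log2 fold changes that changed sign ranged in ENZ-NONE vs DNC-NONE from -0.47 to 2.18 for Ccl7, -1.30 to 1.54 for Ccl12 and -0.13 to 0.0075 for Cxcl16. In ENZ-NONE vs DNC-INHIB they ranged from -0.22 to 0.055 for Ccl9, -0.59 to 2.23 for Ccl12 and -0.084 to 0.055 for Cxcl16. In ENZ-NONE vs ENZ-INHIB they ranged from -0.16 to 0.061 for Ccl9, -0.45 to 2.35 for Ccl12 and -0.098 to 0.072 for Cxcl16. In DNC-NONE vs DNC-INHIB they ranged from -1.40 to 1.21 for Ccl2 and -0.032 to 0.22 for Ccl9. In ENZ-INHIB vs DNC-INHIB they ranged from -0.18 to 0.063 for Ccl9, -0.10 to 0.064 for Cxcl16, -0.60 to 0.12 for Ccl12 and -0.21 to 0.066 for Ccl6. In ENZ-INHIB vs DNC-NONE they ranged from -2.40 to 0.19 for Ccl2, -0.016 to 0.18 for Ccl6 and -0.15 to 0.014 for Cxcl16. In the interaction of digestion and inhibitors they ranged from -0.22 to 0.052 for Ccl6, -0.26 to 0.016 for Ccl9, -1.18 to 1.67 for Ccl12 and -0.15 to 0.022 for Cxcl16. In microglia-like cells they ranged from -0.80 to 2.54 for Ccl12 and -0.066 to 0.064 for Cxcl16. In border macrophage-like cells they ranged from -0.32 to 0.14 for Ccl6 and -0.52 to 0.15 for Ccl9. In the interaction of cell class and preparation they ranged from -0.38 to 0.21 for Ccl9 and -0.84 to 1.24 for Ccl12. Without both libraries the interaction of Ccl9 was -0.29. The libraries behind the changed calls are named in the report, and Ccl12 in ENZ-INHIB vs DNC-NONE was also called without ENZ-INHIB replicate 1 (-1.32, edgeR adjusted p 0.0402).

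Replicate numbers are shared by ENZ-NONE and DNC-INHIB and by ENZ-INHIB and DNC-NONE, but same-numbered libraries did not deviate together (correlations 0.11, -0.02 and 0.15, and -0.08, -0.05 and 0.01) and come from different animals. With the replicate block 0 chemokines were called in ENZ-NONE vs DNC-INHIB and 2 in ENZ-INHIB vs DNC-NONE, against 0 and 1 without it.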
